A study of Mus musculus with 3 samples.

Results

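The genes described here are the Wnt ligands, their Frizzled receptors, the co-receptors Lrp5 and Lrp6, and the secreted proteins that inhibit them, measured in stromal cells of mouse subcutaneous fat. They were chosen by symbol alone, as every gene named Wnt, Fzd, Sfrp or Dkk with a number, plus Wif1, Frzb, Lrp5 and Lrp6. This gave 41 of the 32285 genes in the count tables, of which 19 are ligands, 10 are receptors, 2 are co-receptors and 10 are secreted inhibitors.

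Wnt proteins are lipid-modified secreted signals that act mostly on nearby cells. A ligand held by a Frizzled receptor and Lrp5 or Lrp6 leads to the stabilization of beta-catenin, which enters the nucleus and acts with TCF/LEF factors on target genes, while other ligands signal through Frizzled, Ror and Ryk receptors without beta-catenin. Secreted Frizzled-related proteins (Sfrp genes and Frzb) and Wif1 bind the ligands, and most Dickkopf proteins (Dkk genes) bind the co-receptors. In fat, signalling through beta-catenin is known for holding progenitors back from becoming adipocytes, and Wnt10b is the ligand best known for it.

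Cells came from the inguinal subcutaneous depot of 3 male wild-type C57BL/6J mice aged 8 weeks, which carried no transgene and received no treatment. The fat was digested with collagenase, and cells lacking the endothelial protein CD31 and the leukocyte protein CD45 were sorted and loaded for 10x Genomics single-cell sequencing from the 3′ end of transcripts, with 1 library per mouse and 1 condition. The mice are therefore the replicates, and classes of cells within each mouse were compared. Reads were counted as unique molecular identifiers (UMIs), each standing for 1 captured transcript whatever the gene's length, and levels are given per 1000000 UMIs of a class (CPM), a scale on which genes can be set side by side apart from differences in capture.

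A cell was kept when over 500 genes were seen in it and under 5% of its UMIs were mitochondrial. Mice 1, 2 and 3 gave 12984, 6414 and 15179 such cells, holding 94816520, 78108414 and 99328725 UMIs. They were placed in classes by the raw UMIs of marker genes that are not among the 41. Progenitor-gate cells had at least 3 UMIs of Dpp4 and Pi16 together and at most 1 of Icam1 and Fabp4, and numbered 7399, 3169 and 9273. Preadipocyte-gate cells had at least 4 UMIs of Icam1 and Fabp4 and at most 1 of Dpp4, and numbered 2278, 1394 and 1889. Regulatory-gate cells, named for the adipogenesis-regulatory cells (Aregs) of fat stroma, had at least 1 UMI each of Clec11a and Fmo2 and at most 1 each of Fabp4 and Dpp4, and numbered 270, 384 and 404. Cells in no gate numbered 2988, 1348 and 3517, and 49, 119 and 96 cells that met 2 gates were left out. Regulatory-gate cells were shallower, with median UMIs of 4945, 10104.5 and 4575 against 7329, 12052 and 6690 in the progenitor gate.

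Marker genes outside the gates followed the class names. The summed level of Cd55, Sema3c, Anxa3, Ly6c1 and Cd34 was between 5087 and 5584 CPM in the progenitor gate, against at most 1236 in the preadipocyte gate and at most 1879 in the regulatory gate. That of Pparg, Lpl, Cd36, Col4a1 and Apoe was between 6408 and 8218 CPM in the preadipocyte gate, at most 905 in the progenitor gate and at most 3746 in the regulatory gate, although Apoe alone was higher in the regulatory gate (1277 CPM on average) than in the preadipocyte gate (809). That of F3, Gdf10, Mgp, Meox2 and Cygb was between 2330 and 2982 CPM in the regulatory gate and at most 981 in the other gates, although Cygb alone was not called between the regulatory and preadipocyte gates (adjusted p = 0.0962). Other cell types were rare in every gate but not absent. The 5 mural markers summed to between 30.0 and 47.4 CPM in the preadipocyte gate and at most 12.4 in the others. The 5 endothelial markers reached 28.9 CPM in the preadipocyte gate of mouse 2, and the 5 muscle markers 106 CPM there. In mice 1 and 3 the muscle markers summed to 3.37 and 5.01 CPM in that gate. Of these 5, 3 were under 1 CPM on average in it. Epithelial markers summed to 71.8 CPM and mesothelial markers to 32.5 CPM in the regulatory gate of mouse 3, while epithelial markers were at 0 there in mice 1 and 2, and leukocyte markers reached 17.6 CPM in the regulatory gate of mouse 1. Schwann markers summed to between 18.1 and 42.5 CPM in the preadipocyte and regulatory gates and at most 5.86 in the progenitor gate. The 5 adipocyte markers were at most 2.52 CPM. Any pair of libraries shared between 52 and 81 cell barcodes. Doublets were not removed and free RNA was not estimated.

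Of the 41 genes, 26 had enough counts to be tested between classes and 15 did not. The untested genes were 9 ligands (Wnt2b, Wnt3, Wnt3a, Wnt7a, Wnt7b, Wnt8a, Wnt8b, Wnt9b and Wnt10a), 2 receptors (Fzd6 and Fzd9) and 4 inhibitors (Dkk1, Dkk4, Frzb and Wif1). Of these, 5 ligands had no UMI in any kept cell, and the other 10 genes had at most 52 UMIs over all kept cells. A count of 0 over the 3 mice allows a level of up to 0.0195 CPM in the progenitor gate, 0.0597 CPM in the preadipocyte gate and 0.425 CPM in the regulatory gate, for counting error only. The faint signal of Frzb, a secreted Frizzled-related protein, lay mostly in the preadipocyte gate, with 16 UMIs there and 1 in the progenitor gate, a ratio of levels of 49.0 (95% counting interval 7.61 to 2054).

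Summed over the ligands, the progenitor gate held 320, 328 and 326 CPM in mice 1, 2 and 3, the preadipocyte gate 85.4, 91.8 and 104, and the regulatory gate 143, 131 and 143. Progenitor-gate cells were thus above both other classes in each mouse. The secreted inhibitors were ordered differently, with 1019, 1393 and 1255 CPM in the progenitor gate, 154, 195 and 230 in the preadipocyte gate, and 1305, 1602 and 1505 in the regulatory gate. Receptors differed less, with 140 ± 7.65 CPM (SD, n = 3 mice) in the progenitor gate, 171 ± 7.95 in the preadipocyte gate and 187 ± 18.9 in the regulatory gate. The UMIs of Sfrp1, Sfrp2, Sfrp4 and Sfrp5 outnumbered those of all ligands by 2.92, 4.04 and 3.69 to 1 in the progenitor gate, 1.13, 1.48 and 1.70 to 1 in the preadipocyte gate and 8.91, 11.9 and 10.3 to 1 in the regulatory gate. These sums and ratios are descriptions and were not tested, and UMI counts do not measure protein.

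**Figure D1:**
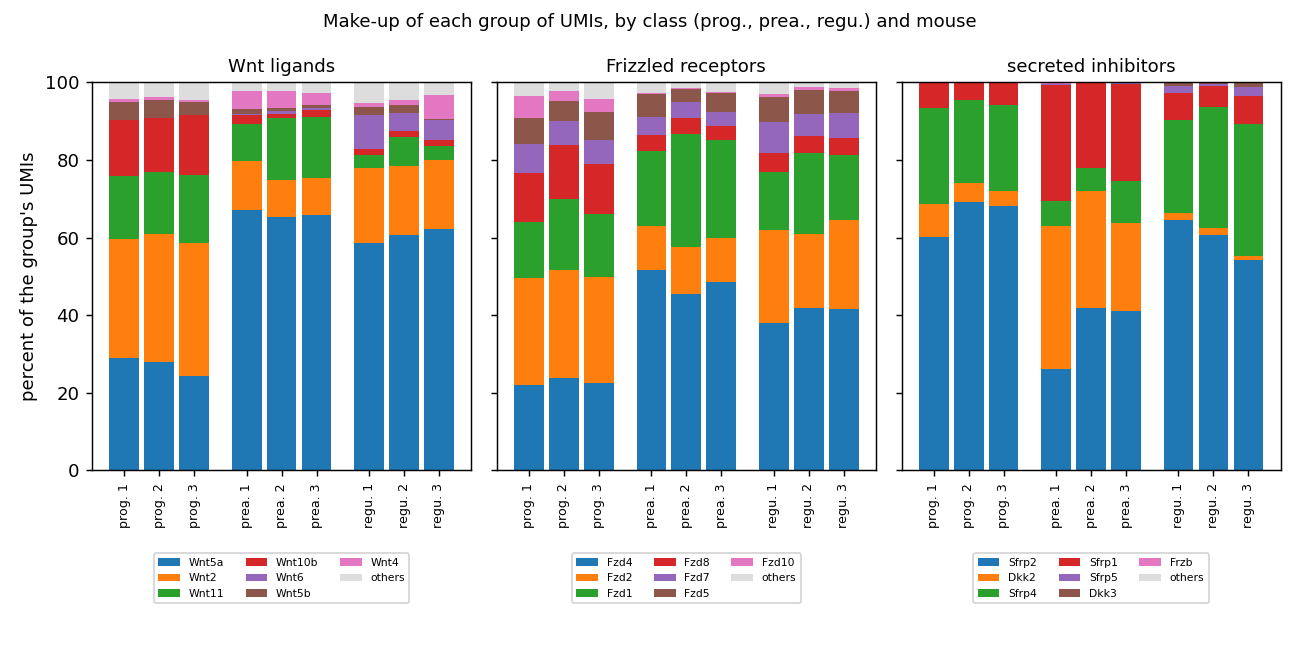
Each bar splits the UMIs of 1 group of genes in 1 class and mouse into the percent supplied by each gene, for Wnt ligands, Frizzled receptors and secreted inhibitors (prog., prea. and regu. are the progenitor, preadipocyte and regulatory gates, numbered by mouse). Wnt5a supplies 24.4 to 28.9% of ligand UMIs in the progenitor gate but 65.3 to 67.2% in the preadipocyte gate, and Fzd4 supplies 45.3 to 51.6% of receptor UMIs in the preadipocyte gate.

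The make-up of the ligand UMIs differed between classes by more than the spread over mice. In the progenitor gate, 4 ligands supplied most of them, at 32.6% ± 1.83 for Wnt2, 27.1% ± 2.37 for Wnt5a, 16.5% ± 0.746 for Wnt11 and 14.6% ± 0.820 for Wnt10b (SD, n = 3 mice). In the preadipocyte gate Wnt5a alone supplied 66.1% ± 0.961, and in the regulatory gate 60.5% ± 1.85. The plot of the make-up by mouse shows the same for the receptors, where Fzd2, Fzd4 and Fzd1 supplied 27.6%, 22.8% and 16.3% on average in the progenitor gate and Fzd4 led in the preadipocyte gate (48.5% ± 3.11) and the regulatory gate (40.5% ± 2.17). Of the inhibitor UMIs, Sfrp2 supplied 65.8% ± 4.96 in the progenitor gate and 59.8% ± 5.19 in the regulatory gate, while in the preadipocyte gate Sfrp2, Dkk2 and Sfrp1 supplied 36.3%, 29.9% and 25.7%.

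Classes were compared on UMIs summed per mouse and class with edgeR's quasi-likelihood test, with mouse as a block and p-values adjusted over all 13258 genes tested (Benjamini-Hochberg). The 3 class comparisons share their sums, so that they are not independent of each other. Of the 41 genes, 26 were tested. At an adjusted p under 0.05, 17 of these 26 were higher in the progenitor than in the preadipocyte gate and 6 lower (88.5% called). Of all tested genes, 29.2% were higher and 27.2% lower (56.4% called). Between the regulatory and preadipocyte gates, 14 of the 26 were higher in the regulatory gate and 3 lower (65.4% called). Of all genes, 12.3% and 13.4% were (25.7% called). Between the regulatory and progenitor gates, 9 of the 26 were higher in the regulatory gate and 10 lower (73.1% called). Of all genes, 18.9% and 24% were (42.9% called). A gene could enter the test through the single class in which it is high, so these counts describe the 26 tested genes and say nothing of the other 15. In all 3 comparisons, 11 of the 26 were called. The share of all genes called in all 3 was not counted, so the 11 cannot be set against it. Some calls among the 11, such as those of Wnt5b, Wnt9a and Fzd10 over the preadipocyte gate in the regulatory gate, were lost without a mouse.

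Of the 10 ligands tested, 8 were higher in the progenitor than in the preadipocyte gate, where 29.2% of all tested genes were. Wnt4 and Wnt6 were lower, as were 27.2% of all tested genes. The 8 were Wnt1, Wnt2, Wnt5a, Wnt5b, Wnt9a, Wnt10b, Wnt11 and Wnt16, of which Wnt1 and Wnt16 entered the test only through the progenitor gate. Of the 8 ligands, 7 were also higher there than in the regulatory gate. For 4 of these 7, the DNA just upstream of the start is given, as the regulatory sequence next to the gene (RefSeq, GRCm38.p6). Wnt5b, Wnt9a and Wnt16 are not shown. The stretches are up to 250 bases without any exon, which leaves 110 bases for Wnt2. Wnt11 has a pair of annotated starts and both are shown. Capitals mark CTTTG or its reverse complement CAAAG, the core letters of the TCF/LEF motif, searched on both strands.
Wnt2, chr6:18030586-18030695, minus strand: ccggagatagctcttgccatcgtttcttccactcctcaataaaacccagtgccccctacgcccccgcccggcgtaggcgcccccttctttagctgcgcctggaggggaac
Wnt10b, chr15:98778151-98778400, minus strand: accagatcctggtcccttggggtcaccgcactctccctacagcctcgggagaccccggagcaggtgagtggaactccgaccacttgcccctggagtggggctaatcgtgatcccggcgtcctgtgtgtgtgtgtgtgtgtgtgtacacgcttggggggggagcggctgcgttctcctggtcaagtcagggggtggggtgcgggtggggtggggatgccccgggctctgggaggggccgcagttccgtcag
Wnt1, chr15:98789607-98789856, plus strand: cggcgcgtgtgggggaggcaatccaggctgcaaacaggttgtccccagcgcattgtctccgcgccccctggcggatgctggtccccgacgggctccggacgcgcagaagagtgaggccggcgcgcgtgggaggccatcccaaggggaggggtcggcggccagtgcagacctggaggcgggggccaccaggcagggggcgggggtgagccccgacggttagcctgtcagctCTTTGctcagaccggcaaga
Wnt11 first start, chr7:98834862-98835111, plus strand: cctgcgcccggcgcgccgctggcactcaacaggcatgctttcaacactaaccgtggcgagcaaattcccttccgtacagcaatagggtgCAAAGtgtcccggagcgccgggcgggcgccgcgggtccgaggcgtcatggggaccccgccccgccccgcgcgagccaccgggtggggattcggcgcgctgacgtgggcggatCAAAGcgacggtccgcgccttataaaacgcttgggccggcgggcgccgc
Wnt11 second start, chr7:98838595-98838844, plus strand: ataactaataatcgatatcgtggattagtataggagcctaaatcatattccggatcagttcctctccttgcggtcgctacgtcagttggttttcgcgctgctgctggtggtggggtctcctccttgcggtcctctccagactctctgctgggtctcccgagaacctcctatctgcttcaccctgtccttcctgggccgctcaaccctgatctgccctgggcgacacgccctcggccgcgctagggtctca
The core was found upstream of Wnt1 once and of the first start of Wnt11 at 2 places, and in none of the other windows shown. Of the ligands not shown, Wnt5b had 2, 0 and 1 matches at its annotated starts, and Wnt9a and Wnt16 had 0. The 250 bases before a start could be read for 27 of the 41 genes, at 30 starts in all, and held the core at 14 of them, where 48.6% of all 32851 mouse windows of that length did. The GC box GGGCGG, on either strand, was found at 22 of the 30 starts and in 32.7% of all windows. These matches describe the letters only.

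**Figure D2:**
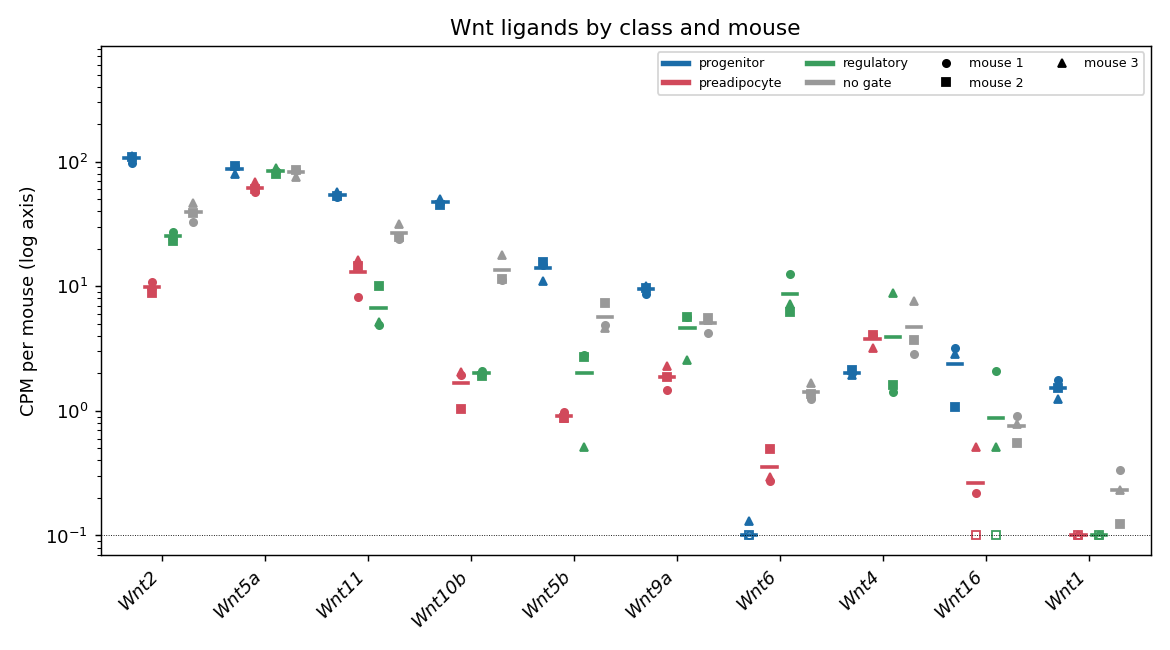
Level of the 10 tested Wnt ligands in CPM (log axis) in each class, with 1 point per mouse and a bar at the mean. Open points on the dotted line are below 0.1 CPM. Wnt2, Wnt10b, Wnt11 and Wnt5b are highest in the progenitor gate in each mouse, Wnt6 in the regulatory gate, and Wnt5a is between 57.4 and 92.4 CPM in the 3 gates.

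Wnt2, a ligand that the study also lists among its stemness genes, was at 98.0, 108 and 112 CPM in the progenitor gate of mice 1, 2 and 3, at 10.8, 8.81 and 10.1 in the preadipocyte gate, and at 27.4, 23.3 and 25.3 in the regulatory gate. The classes did not overlap, and the regulatory gate lay between the other classes. The progenitor gate exceeded the preadipocyte gate by 11.1-fold (log2 3.47, SE 0.0858, adjusted p = 3.85e-11), the regulatory gate exceeded the preadipocyte gate by 2.60-fold (log2 1.38, SE 0.138, adjusted p = 1.41e-05) and fell short of the progenitor gate by 4.28-fold (log2 -2.10, SE 0.108, adjusted p = 2.17e-08).

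Wnt10b was at 46.7, 45.2 and 50.3 CPM in the progenitor gate, at 1.96, 1.04 and 2.06 in the preadipocyte gate, and at 2.11, 1.89 and 2.07 in the regulatory gate. It was high in progenitor-gate cells alone among the 3 gates. Its progenitor to preadipocyte ratio of 29.5 (log2 4.88, SE 0.122, adjusted p = 4e-11) was near its progenitor to regulatory ratio of 23.5 (regulatory minus progenitor log2 -4.55, SE 0.214, adjusted p = 1.04e-08). The regulatory gate had 14 Wnt10b UMIs in all, and its difference from the preadipocyte gate was not called (log2 0.33, SE 0.394, adjusted p = 0.64). Wnt10b lies on the minus strand at chr15:98770712-98778150 and Wnt1 on the plus strand at chr15:98789857-98793837, 11706 bases away. Wnt1 was much fainter, at 1.77, 1.54 and 1.25 CPM in the progenitor gate, and had no UMI in either other gate, so that it was at least 25.2-fold higher than in the preadipocyte gate and at least 3.53-fold higher than in the regulatory gate when a limit of 3 counts over the mice stands for 0. The 95% counting intervals of these ratios reach down to 20.3 and 2.85. Wnt1 was called higher in the progenitor gate than in either other gate (adjusted p = 5.6e-05 and 0.0085, the second losing its call without mouse 2 at 0.0576). It entered the test only through the progenitor gate, so these calls lend no separate weight to its counts of 0 in the other gates.

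Wnt11, a ligand of the beta-catenin-independent kind, was at 51.7, 52.5 and 56.7 CPM in the progenitor gate, 8.15, 14.6 and 16.2 in the preadipocyte gate, and 4.91, 10.0 and 5.17 in the regulatory gate. It was higher in the progenitor gate by 4.40-fold over the preadipocyte gate (log2 2.14, SE 0.140, adjusted p = 6.86e-08) and 7.35-fold over the regulatory gate (regulatory minus progenitor log2 -2.88, SE 0.256, adjusted p = 2.24e-06), and the preadipocyte and regulatory gates overlapped and their difference was not called (log2 -0.74, SE 0.315, adjusted p = 0.111).

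Wnt5a, best known for beta-catenin-independent signalling, was abundant in all 3 gates. It was at 92.4, 91.8 and 79.7 CPM in the progenitor gate, 57.4, 60.0 and 68.5 in the preadipocyte gate, and 83.5, 79.5 and 88.9 in the regulatory gate. The preadipocyte gate was lowest in each mouse. The difference was 1.48-fold for the progenitor gate (log2 0.56, SE 0.0833, adjusted p = 0.000101) and 1.40-fold for the regulatory gate (log2 0.48, SE 0.104, adjusted p = 0.00483), and the progenitor and regulatory gates overlapped (regulatory minus progenitor log2 -0.08, SE 0.101, adjusted p = 0.564).

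Fainter ligands also leaned to the progenitor gate. Wnt5b was at 14.8, 15.8 and 11.1 CPM there, against 0.978, 0.875 and 0.884 in the preadipocyte gate (15.9-fold, log2 3.99, SE 0.179, adjusted p = 2.25e-09). In the regulatory gate it was at 2.81, 2.70 and 0.517 CPM on 15 UMIs, a call over the preadipocyte gate (adjusted p = 0.0479) that was lost without mouse 1 (0.168) or mouse 2 (0.514). Wnt9a was at 8.68, 9.75 and 10.1 CPM in the progenitor gate, 1.47, 1.86 and 2.28 in the preadipocyte gate and 5.62, 5.68 and 2.58 in the regulatory gate. Each pair of gates was called (progenitor over preadipocyte log2 2.42, SE 0.171, adjusted p = 1.39e-07, regulatory over preadipocyte log2 1.40, SE 0.315, adjusted p = 0.0062, and regulatory minus progenitor log2 -1.02, SE 0.247, adjusted p = 0.00539). Without mouse 2, Wnt9a was not called between the regulatory and preadipocyte gates (adjusted p = 0.179, against 0.0062 with all mice). Wnt16 was at 3.22, 1.07 and 2.88 CPM in the progenitor gate and 0.217, 0.0547 and 0.516 in the preadipocyte gate (log2 3.33, SE 0.402, adjusted p = 1.79e-05), and it had 4 UMIs in the regulatory gate. Its call of a lower level there than in the progenitor gate (adjusted p = 0.0456) was lost under 9 of 15 alternatives, among them leaving out mouse 2 (0.183) or mouse 3 (0.192). Wnt16 entered the test only through the progenitor gate, so its calls lend no separate weight to its low counts in the other gates.

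The ligands Wnt6 and Wnt4 went the other way. Wnt6 was at 12.6, 6.22 and 7.23 CPM in the regulatory gate, against 0.0930, 0.0521 and 0.130 in the progenitor gate and 0.272, 0.492 and 0.295 in the preadipocyte gate. All regulatory values were above all others. Its 55 regulatory UMIs came from 10, 14 and 9 cells of the 3 mice, and the excess was 23.6-fold over the preadipocyte gate (log2 4.56, SE 0.456, adjusted p = 1.39e-05) and 82.4-fold over the progenitor gate (log2 6.36, SE 0.473, adjusted p = 5.03e-07). It was log2 4.27 and 6.10 without cells holding any UMI of 9 epithelial, muscle and leukocyte genes, an alternative chosen after seeing the data. Wnt6 entered the test only through the regulatory gate, so its calls over the other gates lend no separate weight to its low counts there. Between the progenitor and preadipocyte gates the Wnt6 call rests on 15 and 18 UMIs (log2 -1.80, adjusted p = 0.0195, and 0.179 without mouse 2). Wnt10a, which lies 6193 bases from Wnt6 on chromosome 1, had 3 UMIs in the regulatory gate, 1 in the preadipocyte gate and 2 in the progenitor gate. Wnt4 was at 4.07, 4.05 and 3.17 CPM in the preadipocyte gate and 2.03, 2.11 and 1.93 in the progenitor gate (log2 -0.86, SE 0.289, adjusted p = 0.0232, against 0.123 by DESeq2 and 0.0633 without mouse 2). In the regulatory gate it was at 1.40, 1.62 and 8.78 CPM, and mouse 3, where it was high, is also the mouse whose regulatory gate held epithelial and mesothelial markers. The log2 difference of Wnt4 from the progenitor gate was 0.84 with all cells and 0.44 without cells holding those 9 genes, and neither was called.

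Among the receptors, Fzd2, Fzd7, Fzd8 and Fzd10 were higher in the progenitor gate than in the preadipocyte gate, Fzd1 and Fzd4 were lower, and Fzd3 and Fzd5 were not called. Both co-receptors were lower in the progenitor gate.

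**Figure D3:**
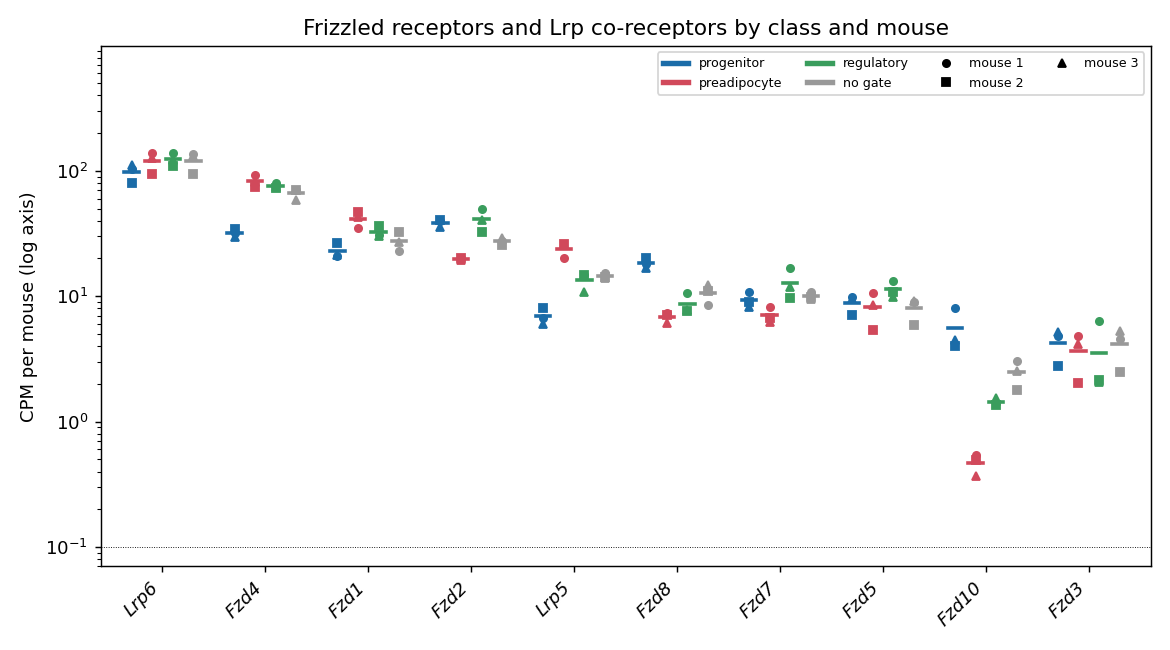
Level of the tested Frizzled receptors and the Lrp co-receptors in CPM (log axis) in each class, with 1 point per mouse and a bar at the mean. Fzd4 and Lrp5 are lowest in the progenitor gate in each mouse, and Fzd8 and Fzd10 highest there.

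Fzd4, a receptor for several Wnt ligands and for Norrin in vessels, was at 31.9, 34.2 and 29.4 CPM in the progenitor gate, 92.4, 74.1 and 81.9 in the preadipocyte gate, and 79.3, 72.8 and 74.4 in the regulatory gate. The progenitor gate stood apart below the other classes, which overlapped. It was 2.50-fold below the preadipocyte gate (log2 -1.32, SE 0.0755, adjusted p = 1.95e-08), and the regulatory gate was 2.36-fold above it (log2 1.24, SE 0.0960, adjusted p = 7.19e-07) and within log2 -0.08 (SE 0.0939, adjusted p = 0.579) of the preadipocyte gate. Mural and Schwann markers were also lowest in the progenitor gate, and endothelial markers were highest in the preadipocyte gate in mice 1 and 2. Without cells holding any UMI of Pecam1, Cdh5, Ptprc, Rgs5 or Adipoq the Fzd4 difference was as large (log2 -1.32). That filter reads Rgs5 alone of the mural markers, only Pecam1 and Cdh5 of the endothelial ones, and no Schwann marker. The part of mural, endothelial and Schwann cells in the Fzd4 difference was therefore not tested.

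Fzd1 followed the same order less steeply, with 20.9, 26.4 and 21.2 CPM in the progenitor gate, 34.9, 47.3 and 42.5 in the preadipocyte gate and 30.9, 36.2 and 30.0 in the regulatory gate. The progenitor gate was below the preadipocyte gate by 1.75-fold (log2 -0.81, SE 0.0666, adjusted p = 5.72e-07). The step between the regulatory and preadipocyte gates was small (log2 -0.32, SE 0.0994, adjusted p = 0.0314) and was lost under 7 of 15 alternatives, among them leaving out mouse 2 (adjusted p = 0.246) or mouse 3 (0.174). Fzd2 split the classes in another way. It was at 39.9, 40.2 and 35.8 CPM in the progenitor gate and 49.8, 32.7 and 40.8 in the regulatory gate, which overlapped (log2 0.02, SE 0.118, adjusted p = 0.915), and at 20.3, 20.1 and 19.3 in the preadipocyte gate, below both by 2.01-fold (log2 1.01, SE 0.0884, adjusted p = 9.82e-07) and 2.04-fold (log2 1.03, SE 0.130, adjusted p = 9.26e-05).

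Fzd8 and Fzd10 were progenitor-gate receptors. Fzd8 was at 18.2, 20.1 and 16.9 CPM there, 7.39, 7.11 and 6.12 in the preadipocyte gate and 10.5, 7.57 and 7.75 in the regulatory gate. The progenitor gate was above the preadipocyte gate by 2.78-fold (log2 1.47, SE 0.109, adjusted p = 2.08e-07) and above the regulatory gate by 2.25-fold (regulatory minus progenitor log2 -1.17, SE 0.166, adjusted p = 0.000118). Fzd10 was fainter, at 8.13, 4.04 and 4.50 CPM in the progenitor gate, 0.543, 0.492 and 0.368 in the preadipocyte gate (log2 3.59, SE 0.221, adjusted p = 3.86e-08) and 1.40, 1.35 and 1.55 in the regulatory gate on 10 UMIs. Its call between the regulatory and preadipocyte gates (log2 1.76, adjusted p = 0.0243) was lost without any 1 of the mice, with adjusted p-values of 0.0788, 0.127 and 0.128.

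Fzd7 and Fzd5 were highest on average in the regulatory gate. Fzd7 was at 16.9, 9.74 and 11.9 CPM there, 10.8, 8.91 and 8.20 in the progenitor gate and 8.15, 6.73 and 6.26 in the preadipocyte gate. The regulatory gate exceeded the preadipocyte gate by 1.80-fold (log2 0.85, SE 0.177, adjusted p = 0.0038), and the progenitor gate did so by 1.37-fold (log2 0.45, SE 0.119, adjusted p = 0.00601), a call lost without the mouse block (adjusted p = 0.0835) and with cells thinned to 3000 UMIs (log2 0.34, adjusted p = 0.0992). Fzd5 was at 13.3, 10.8 and 9.82 CPM in the regulatory gate, 9.86, 7.12 and 9.54 in the progenitor gate and 10.6, 5.36 and 8.47 in the preadipocyte gate, with values that overlapped throughout. Its call over the preadipocyte gate (log2 0.60, SE 0.200, adjusted p = 0.0444) was lost under 7 of 15 alternatives, among them leaving out mouse 2 (adjusted p = 0.452) or mouse 3 (0.0658). Fzd3 was between 2.02 and 6.32 CPM in the 3 gates and was not called in any comparison.

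The co-receptors differed in level and pattern. Lrp6 was the more abundant, at 104, 80.0 and 110.4 CPM in the progenitor gate, 138, 93.6 and 127 in the preadipocyte gate and 139, 109.5 and 122 in the regulatory gate. The classes overlapped between mice, yet within each mouse the progenitor gate was lowest, by 1.17-fold against the preadipocyte gate (log2 -0.22, SE 0.0685, adjusted p = 0.0154, against 0.348 when the mice were not used as blocks and 0.07 without mouse 1). Lrp5 was at 6.66, 8.11 and 5.96 CPM in the progenitor gate, 20.1, 26.1 and 25.5 in the preadipocyte gate and 14.7, 14.9 and 10.8 in the regulatory gate. Its 3 classes did not overlap. The progenitor gate was 3.34-fold below the preadipocyte gate (log2 -1.74, SE 0.117, adjusted p = 8.4e-08), and the regulatory gate lay between them, 1.92-fold above the progenitor gate (log2 0.94, SE 0.183, adjusted p = 0.00132) and 1.74-fold below the preadipocyte gate (log2 -0.80, SE 0.170, adjusted p = 0.00428, and 0.0685 without mouse 2).

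Of the 6 secreted inhibitors tested, 5 were higher in the progenitor than in the preadipocyte gate, where 29.2% of all tested genes were. They were Sfrp1, Sfrp2, Sfrp4, Dkk3 and Dkk2. The Dkk2 difference was small (log2 0.30), and its call was lost under 6 of 15 alternatives. Sfrp5 was not called. Against the preadipocyte gate, the regulatory gate was higher for Sfrp1, Sfrp2, Sfrp4, Sfrp5 and Dkk3 and lower for Dkk2. Of all tested genes, 12.3% were higher there and 13.4% lower. The Sfrp5 call is not one of the class as a whole, as nearly all UMIs behind it lay in 1 cell per mouse. That gene also entered the test only through the regulatory gate.

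**Figure D4:**
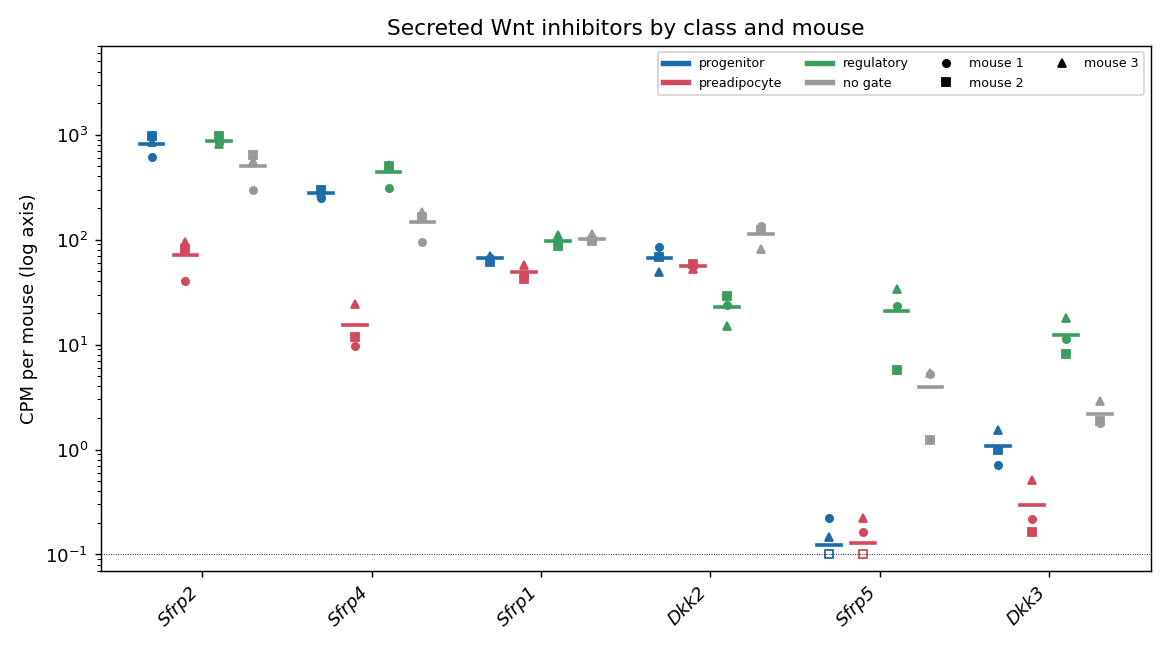
Level of the 6 tested secreted inhibitors in CPM (log axis) in each class, with 1 point per mouse and a bar at the mean. Open points on the dotted line are below 0.1 CPM. Sfrp2 and Sfrp4 are low in the preadipocyte gate and high in the progenitor and regulatory gates, while Dkk2 is lowest in the regulatory gate and highest in cells of no gate. The Sfrp5 points of the regulatory gate come almost wholly from 1 cell per mouse.

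Sfrp2 was the most abundant of the 41 genes, with 612, 965 and 854 CPM in the progenitor gate, 843, 971 and 817 in the regulatory gate, and 40.2, 81.6 and 94.4 in the preadipocyte gate. Progenitor-gate and regulatory-gate cells overlapped (log2 0.14, SE 0.164, adjusted p = 0.523), and both were far above the preadipocyte gate, by 12.0-fold (log2 3.58, SE 0.181, adjusted p = 6.58e-09) and 13.2-fold (log2 3.73, SE 0.185, adjusted p = 5.48e-08). Sfrp4 was at 252, 298 and 279 CPM in the progenitor gate, 311, 501 and 509 in the regulatory gate, and 9.73, 11.8 and 24.6 in the preadipocyte gate. It separated all classes. The progenitor gate exceeded the preadipocyte gate by 19.8-fold (log2 4.31, SE 0.193, adjusted p = 2.25e-09), and the regulatory gate exceeded the progenitor gate by a further 1.56-fold (log2 0.64, SE 0.165, adjusted p = 0.00807, and 0.158 when the mice were not used as blocks).

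Sfrp1 was flatter, at 67.2, 61.3 and 70.3 CPM in the progenitor gate, 46.2, 42.6 and 57.8 in the preadipocyte gate, and 92.7, 87.9 and 111 in the regulatory gate. The order was the same in each mouse, the classes did not overlap, and each step was called. The progenitor gate exceeded the preadipocyte gate by 1.42-fold (log2 0.50, SE 0.0641, adjusted p = 2.77e-05) and the regulatory gate exceeded the progenitor gate by 1.46-fold (log2 0.55, SE 0.0755, adjusted p = 9.83e-05, and 0.146 when the gates were read on cells thinned to 3000 UMIs).

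Sfrp5 was listed at 23.2, 5.68 and 34.1 CPM in the regulatory gate and at most 0.223 in the other gates. Of its 33, 21 and 66 UMIs there, 31, 20 and 66 lay in 1 cell of each mouse, and 2, 1 and 0 in all other regulatory-gate cells. Those 3 cells held 5327, 2687 and 7119 UMIs. Of the stromal genes, they held 48, 11 and 26 UMIs of Dcn, 5, 4 and 10 of Col1a1 and none of the receptor Pdgfra. Of the endothelial genes read, Cdh5 had 3, 1 and 3 UMIs and Pecam1 had none. The keratin Krt19 had 0, 3 and 4 UMIs, and the mesothelial gene Msln had 2 in mouse 3 only. The epithelial genes Epcam, Krt5, Krt8, Krt14 and Cdh1 had none. The type of these cells was not tested. Although the test called Sfrp5 over both other gates (log2 7.44 over the preadipocyte gate, SE 0.470, adjusted p = 3.15e-07), nearly all the counts behind it lay in those cells. When cells with any UMI of Cdh5 or the 4 other markers named for Fzd4 were left out, the gene had too few counts to be tested.

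Dkk3, a Dickkopf relative without a clear role at the co-receptors, was spread over more cells. It was at 11.2, 8.11 and 18.1 CPM in the regulatory gate, 0.707, 0.991 and 1.52 in the progenitor gate and 0.217, 0.164 and 0.516 in the preadipocyte gate, and its regulatory UMIs came from 15, 25 and 21 cells. The regulatory gate was 42.5-fold above the preadipocyte gate (log2 5.41, SE 0.359, adjusted p = 4.42e-07) and 11.2-fold above the progenitor gate (log2 3.49, SE 0.277, adjusted p = 8.51e-07). The progenitor gate was above the preadipocyte gate by log2 1.92, which fell to 0.66 and was not called when cells of 2 gates were counted in both (adjusted p = 0.1). Dkk2, an antagonist of Lrp co-receptors, went the opposite way, at 23.9, 28.9 and 15.0 CPM in the regulatory gate against 85.9, 68.2 and 48.8 in the progenitor gate and 56.7, 58.9 and 52.2 in the preadipocyte gate. The regulatory gate was lowest in each mouse, by 2.84-fold against the progenitor gate (log2 -1.51, SE 0.172, adjusted p = 1.92e-05) and 2.31-fold against the preadipocyte gate (log2 -1.21, SE 0.177, adjusted p = 0.000313). The progenitor and preadipocyte gates overlapped for Dkk2, and their called difference (log2 0.30, adjusted p = 0.0334) was lost without mouse 1 (adjusted p = 0.46) or mouse 2 (0.0897) and under 4 other alternatives.

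**Figure D5:**
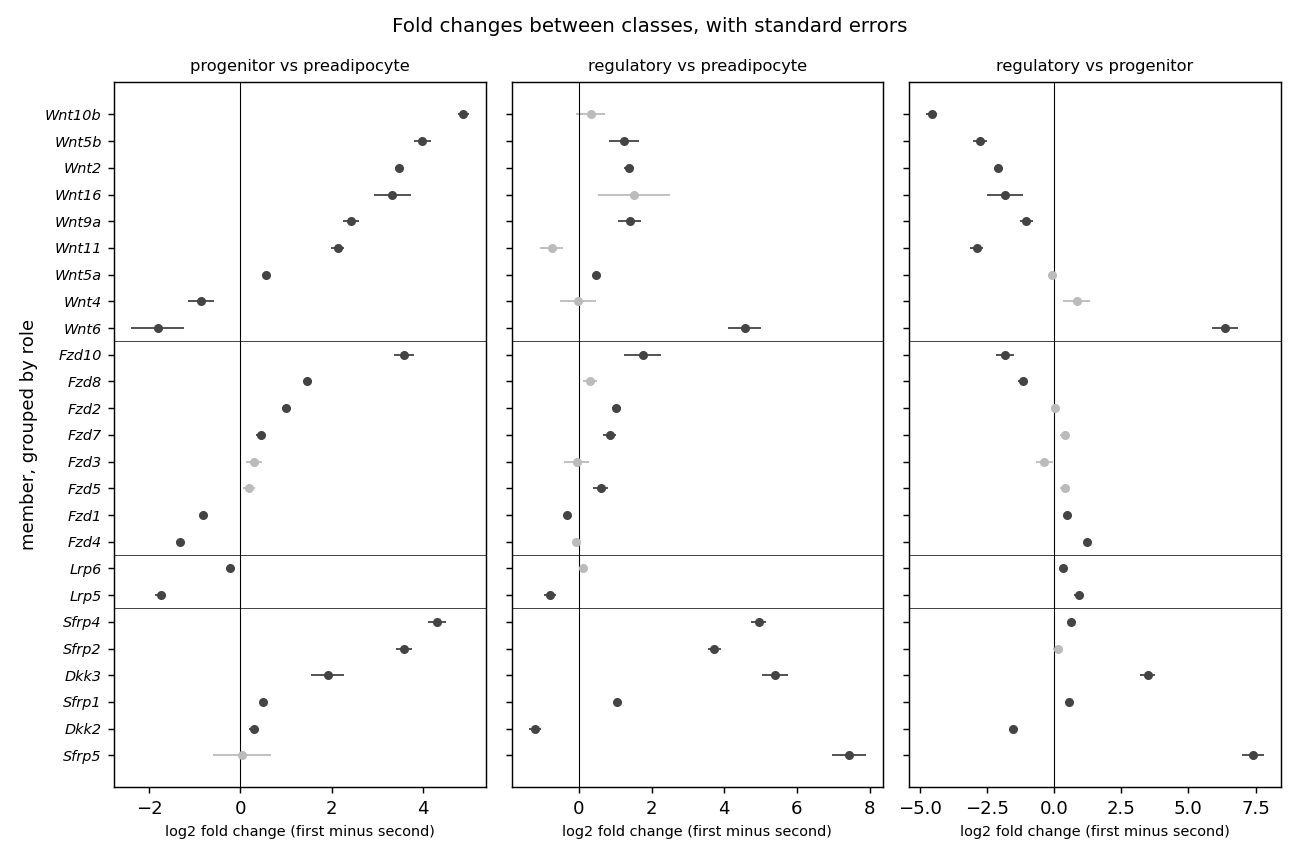
Log2 fold change of the tested genes in the 3 class comparisons, grouped by role from ligands (top) through receptors and co-receptors to secreted inhibitors, with bars of 1 standard error (edgeR quasi-likelihood fit, 3 mice). Dark points passed an adjusted p of 0.05 and grey points did not. Wnt1 is left out because only the progenitor gate held its UMIs. Most ligands lie right of 0 in the first panel and left of 0 in the third, where Wnt6 is the exception among those called.

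The plot of the fold changes sets the roles side by side. Against the progenitor gate, the regulatory gate had 7 of the 10 tested ligands lower (Wnt1, Wnt2, Wnt5b, Wnt9a, Wnt10b, Wnt11 and Wnt16) and Wnt6 higher. Of these, Wnt1 and Wnt16 entered the test only through the progenitor gate, and Wnt6 only through the regulatory gate. Of the 8 receptors tested, 2 were lower in the regulatory gate (Fzd8 and Fzd10) and 2 higher (Fzd1 and Fzd4). Both co-receptors were higher. Of the 6 inhibitors tested, 4 were higher (Sfrp1, Sfrp4, Sfrp5 and Dkk3) and Dkk2 was lower. Of all tested genes, 18.9% were higher and 24% lower (42.9% called), and the 50% of receptors called is near that share. Sfrp5 entered the test only through the regulatory gate, where nearly all its UMIs lay in 1 cell per mouse. With cells thinned to 3000 UMIs and shallower cells left out the count of members lower in the regulatory gate was 6 in place of 10, as Wnt9a, Wnt16 and Fzd10 lost their calls and Wnt1 had too few counts to be tested. The Lrp6 call was lost without mouse 2 (adjusted p = 0.0558) and without the mouse block (0.186), and the Fzd1 call without the block (0.0849).

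The study divides Icam1-positive preadipocytes by the hyaluronan receptor CD44, by clustering cells and by sorting on surface protein. A different split, on RNA, was made here. Preadipocyte-gate cells of at least 3000 UMIs were divided by whether Cd44 was detected after thinning to 3000 UMIs. This gave 359, 267 and 431 cells with it and 1860, 1092 and 1391 without, of like depth (median UMIs 8305, 13507 and 7382 against 8104, 12977 and 7382). The gate counts Icam1 and Fabp4 together (25248 and 69171 UMIs over the mice), so a cell could enter it without Icam1. Of the 41 genes, 19 could be tested. Of these 19, 2 were called higher with Cd44 and 1 lower (15.8% called), where 7.14% and 2.54% of 11406 genes were (9.68% called). Sfrp1 was at 61.4, 54.3 and 74.8 CPM with Cd44 and 43.2, 39.6 and 52.6 without, higher in each mouse by 1.47-fold (log2 0.55, SE 0.0717, adjusted p = 0.000189). The Sfrp1 call held under 12 of 13 alternatives and was lost when the mice were not used as blocks (adjusted p = 0.786). In that alternative 0 of the 11406 tested genes were called. Sfrp4 was at 9.19, 23.7 and 28.1 CPM with Cd44 and 9.58, 8.52 and 22.4 without (log2 0.71, SE 0.210, adjusted p = 0.0488), and Fzd4 at 87.3, 55.1 and 61.3 against 93.2, 78.7 and 88.2 (log2 -0.30, SE 0.0862, adjusted p = 0.0397). Both sets of values overlapped. Without mouse 2 the adjusted p-values of Sfrp4 and Fzd4 were 0.441 and 0.173, and without mouse 3 they were 0.0996 and 0.273. Mural markers also moved with Fzd4 in this split, at 17.4, 27.4 and 19.9 CPM with Cd44 and 49.0, 29.4 and 44.6 without, and their part in the Fzd4 difference was not tested. Of the 5 progenitor markers, 4 were also higher with Cd44 (Sema3c by log2 0.55, Anxa3 by 0.36, Cd55 by 0.24 and Ly6c1 by 0.17), each in all 3 mice, and the 5 summed to 1304, 1206 and 1221 CPM with Cd44 and 1218, 1090 and 1161 without. Of the 5 regulatory markers, Gdf10 was higher (log2 0.30) and Cygb lower (log2 -0.19), and the list summed to 556, 904 and 658 CPM with Cd44 and 638, 1002 and 682 without. Of the 5 preadipocyte markers, Lpl was lower (log2 -0.20) and Pparg, Cd36, Col4a1 and Apoe were not called. That list summed to 7685, 5755 and 7824 CPM with Cd44 and 8290, 6567 and 8342 without. Sfrp1 and Sfrp4 were also higher in the progenitor and regulatory gates than in the preadipocyte gate, and the part of these markers' cells in the Sfrp1 and Sfrp4 differences was not tested. No tested ligand was called, and Wnt5a, the main preadipocyte ligand, was at 54.5, 51.1 and 50.2 CPM with Cd44 and 57.8, 62.6 and 74.5 without (log2 -0.25, SE 0.0887, adjusted p = 0.0956).

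The rest of the pathway was followed through 93 other genes, of which 75 could be tested. They were listed as secretion factors with diffusible agonists, receptors, inhibitors, cascade components, nuclear factors and targets. In the progenitor gate 31 were higher and 21 lower than in the preadipocyte gate, where 29.2% and 27.2% of all tested genes were, with a median log2 difference of 0.11 against -0.0043 over all tested genes. Of the regulatory gate, 20 were higher and 15 lower than in the preadipocyte gate (median -0.07, all genes -0.04, of which 12.3% were higher and 13.4% lower), and 15 higher and 31 lower than in the progenitor gate (median -0.20, all genes -0.05, of which 18.9% were higher and 24% lower). Between the regulatory and progenitor gates, 3 of the 25 genes of the beta-catenin cascade were higher and 12 lower, which is 60% called where 42.9% of all tested genes were. Other lists were called at like or higher shares there. These were 80% for secretion factors with diffusible agonists (2 higher, 2 lower), 100% for inhibitors (2 and 3) and 60% for receptors (5 and 7). The 2 higher in the first of these lists were the agonists Rspo1 and Rspo2. Nuclear factors were at 53.8% (2 and 5) and targets at 50% (3 and 3). In the Cd44 split 3 of the 69 genes tested were called at an adjusted p under 0.05, each higher with Cd44, which is 4.35% where 9.68% of all tested genes were called.

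Of the genes that accompany ligands, Wls, the carrier that every Wnt needs for secretion, was at 149, 123 and 151 CPM in the progenitor gate, 87.0, 74.1 and 89.5 in the preadipocyte gate and 83.5, 68.7 and 96.6 in the regulatory gate (progenitor over preadipocyte log2 0.81, SE 0.0606, adjusted p = 2.29e-07), a gene named after its values were seen. The R-spondins, secreted proteins that strengthen Wnt signals at the receptor, divided by class. Rspo1 was at 39.3, 42.5 and 41.3 CPM in the regulatory gate, 2.98, 5.11 and 3.73 in the progenitor gate and 1.09, 1.59 and 2.80 in the preadipocyte gate, and Rspo2 was at 24.6, 20.3 and 9.82 CPM in the regulatory gate and 0.543, 0.328 and 0.442 in the preadipocyte gate. Over the preadipocyte gate the rise was log2 4.57 (SE 0.245, adjusted p = 9.64e-08) for Rspo1 and 5.44 (SE 0.287, adjusted p = 8.79e-08) for Rspo2. Rspo3 was the reverse, at 7.83, 7.66 and 7.21 CPM in the progenitor gate and 10.6, 3.01 and 2.73 in the preadipocyte gate, with 1 UMI in the regulatory gate, which put it 53.2-fold below the progenitor gate (95% counting interval 9.53 to 2103). Lgr4, a receptor for R-spondins, was higher in the progenitor gate than in the preadipocyte gate, at 22.3 ± 3.84 against 5.03 ± 0.724 CPM (log2 2.20, SE 0.108, adjusted p = 5.11e-09).

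At the cell surface, Gpc3, a heparan sulfate proteoglycan, was at 364 ± 12.8 CPM (SD, n = 3 mice) in the progenitor gate, 251 ± 12.9 in the regulatory gate and 59.7 ± 11.4 in the preadipocyte gate. The proteoglycan Sdc1 went the other way and varied between mice, at 61.0, 17.0 and 16.1 CPM in the preadipocyte gate and at most 6.72 in the others. Ror1, a receptor for Wnt5a, was lower in the progenitor gate than in the preadipocyte gate (log2 -1.34, SE 0.168, adjusted p = 2.45e-05), its relative Ror2 was lower in the regulatory than in the progenitor gate (log2 -1.55, SE 0.303, adjusted p = 0.00138), and the Wnt receptor Ryk was lower in the regulatory than in the preadipocyte gate (log2 -0.69, SE 0.0710, adjusted p = 1.79e-05). Prickle1, a planar polarity protein, was at 31.6, 32.2 and 32.5 CPM in the regulatory gate and at most 7.82 in the others (log2 2.92 over the progenitor gate, SE 0.139, adjusted p = 1.11e-08). Reck, a membrane-anchored regulator, was at 115 ± 15.0 CPM in the progenitor gate and 40.5 ± 7.47 in the regulatory gate (log2 -1.49, SE 0.0884, adjusted p = 7.28e-08).

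Of the inhibitors outside the 41 genes, Trabd2b, a membrane protease that inactivates Wnt proteins, was at 87.7, 30.0 and 45.7 CPM in the preadipocyte gate, 3.03, 0.495 and 0.891 in the progenitor gate and 10.5, 4.60 and 6.72 in the regulatory gate. It was far lower in the progenitor gate (log2 -5.21, SE 0.150, adjusted p = 7.57e-11), a direction opposite to that of Sfrp2 and Sfrp4. Igfbp4, which binds insulin-like growth factors and is also known as a Wnt antagonist, was at 1471 ± 249 CPM in the progenitor gate and 324 ± 26.6 in the preadipocyte gate (log2 2.22, SE 0.113, adjusted p = 6.99e-09). Apcdd1, a membrane inhibitor and target gene, was at 22.0 ± 3.39 CPM in the progenitor gate and 6.36 ± 3.01 in the regulatory gate (log2 -1.87, SE 0.190, adjusted p = 7.18e-06).

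Inside the cell, Ctnnb1, which encodes beta-catenin, was at 141, 137 and 144 CPM in the progenitor gate, 141, 143 and 145 in the preadipocyte gate and 129, 119 and 129.7 in the regulatory gate, and was not called in any comparison. Dact1 and Dact3, which bind Dishevelled, were opposed. Dact1 was at 169 ± 28.4 CPM in the progenitor gate against 41.4 ± 6.38 in the preadipocyte gate (log2 2.08, SE 0.110, adjusted p = 1e-08), and Dact3 at 5.69 ± 0.123 against 20.1 ± 0.978 (log2 -1.76, SE 0.0984, adjusted p = 1.64e-08). Of the nuclear factors, Tcf7l2 was at 130.1, 120.4 and 113 CPM in the preadipocyte gate, 71.2, 69.9 and 68.4 in the progenitor gate and 50.5, 72.2 and 65.1 in the regulatory gate (progenitor minus preadipocyte log2 -0.74, SE 0.0764, adjusted p = 4.3e-06), while Lef1 had 6, 2 and 0 UMIs in the progenitor, preadipocyte and regulatory gates and was too low to be tested. Axin2, the target gene most used as a readout of beta-catenin signalling, was at 6.14, 3.65 and 4.29 CPM in the progenitor gate, 0.706, 0.656 and 1.40 in the preadipocyte gate and 3.51, 1.08 and 4.65 in the regulatory gate. It was higher than in the preadipocyte gate in both the progenitor gate (log2 2.44, SE 0.277, adjusted p = 9.94e-06) and the regulatory gate (log2 1.69, SE 0.533, adjusted p = 0.0353). The regulatory and preadipocyte values overlapped, and fold changes of genes outside the 41, Axin2 among them, were not followed through the alternatives. Of the 12 target genes tested, 5 were higher and 2 lower in the progenitor than in the preadipocyte gate (58.3% called, all genes 56.4%). In the regulatory gate 7 were higher and 1 lower than in the preadipocyte gate (66.7% called, all genes 25.7%). Against the progenitor gate, 3 were higher and 3 lower (50% called, all genes 42.9%).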

How the data were processed

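The authors deposited raw UMI counts for each gene in each cell from Cell Ranger. The file header names version 4.0.0 and the labels' processing notes 2.1.1 with build mm10. All 3 libraries came from different mice, and each pair's gene totals differed far beyond sampling noise (lowest chi-squared 63.6 per degree of freedom). Cells were filtered and gated as described, and counts were summed per mouse and class. Sums were fitted with edgeR 4.0.16 in R 4.3.3 (filterByExpr, TMM, quasi-likelihood test, mouse as a block, Benjamini-Hochberg over all tested genes except the 6 gate genes and, in its split, Cd44). The classes of a mouse come from 1 animal, and after class means were removed, sums of a mouse correlated at a mean r of 0.254, 0.491 and 0.362 across 13264 genes. Positions are from GENCODE M21 (GRCm38), in which 32158 identifiers were found. The alternatives covered normalization, DESeq2 1.42.0, filters, blocks, each mouse, gates, depth and other cell types.

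The members and lists were chosen with earlier results of these data known. Values are given for members of at least 10 CPM in a gate or called between classes, and, of the other pathway genes, the 4 largest called rises and falls per comparison that have the same sign in every mouse and at least 10 CPM, plus Axin2, Lef1, Tcf7l2, Rspo3 and Ctnnb1. Counting intervals and limits cover counting error only.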

Additional observations from a re-analysis of the deposited data

Results flagged for a closer look

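Cells that met no gate entered no comparison, and 3 of the 41 genes were higher there than in every gate in each mouse. Dkk2 averaged 113 CPM in these cells (134, 125 and 82.2 in mice 1, 2 and 3), against at most 67.6 CPM on average in a gate. Sfrp1 averaged 102 CPM (96.6, 96.3 and 112), close to its average of 97.2 CPM in the regulatory gate. Wnt7b averaged 0.269 CPM on 17 UMIs, of which mice 1, 2 and 3 gave 1, 1 and 15. Epithelial markers summed to 9.62, 22.0 and 63.4 CPM in these cells and mesothelial markers to 7.57, 10.5 and 42.6, and their part was not tested. The differences from the gates were not tested, and the share of all genes with this pattern was not counted.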

How the results depend on the processing

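Counts of members called were within 1.5 times the reported ones under each alternative except the following. Members lower in the regulatory than in the preadipocyte gate (3) were 1 without the replicate block and 1 to 3 when a mouse was left out, the lowest without mouse 2. Over all tested genes, 1771 of 13258 were lower there, against 652 of 13258 without the block and 946 of 13222 without mouse 2. Members lower in the regulatory than in the progenitor gate (10) were 6 with cells thinned to 3000 UMIs. All tested genes lower there were 3182 of 13258, and 1963 of 11568 with thinned cells. In the Cd44 split, members higher (2) were 1 without TMM, 0 without the replicate block, 1 with DESeq2, 1 thinned, 1 without other types' cells, 4 at a 10% mitochondrial limit and 1 to 2 when a mouse was left out. All tested genes higher there (814 of 11406) were 549 without TMM, 0 without the block, 408 with DESeq2 and 422 of 9626 thinned. They were 834 of 11361 without other types' cells, 989 of 11436 at the 10% limit and 392 to 886 without a mouse. Members lower in the Cd44 split (1) were 4 without TMM, 3 without the count filter, 0 without the replicate block, 0 with DESeq2, 2 with Cd44 read on raw UMIs, 0 thinned and 0 to 2 when a mouse was left out. All tested genes lower there (290 of 11406) were 496 without TMM, 615 of 18904 without the count filter, 0 without the block and 68 with DESeq2. They were 661 of 10994 with Cd44 read on raw UMIs, 119 of 9626 thinned and 111 to 428 without a mouse. The cause of these changes was not tested.

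Over 92 fold changes of named members and 1325 alternative values, 1188 kept their direction and side of the threshold, 78 lost a call, 23 gained one and 36 changed sign, none of which was called in the reported fit. The sign changes, as log2 differences, were as follows. For the regulatory over the preadipocyte gate, Wnt4 went from -0.02 to 0.0492 without the replicate block, 0.0186 without other types' cells and 0.10 at a 10% mitochondrial limit (-1.35 to 0.67 without a mouse), Fzd8 to -0.0310 thinned, and Wnt16 to between -0.29 and 2.51 without a mouse. For the regulatory over the progenitor gate, Wnt4 went to -0.0638 thinned (-0.42 to 1.51 without a mouse), Fzd2 to -0.0324 without the count filter and -0.0006 without other types' cells (-0.0709 to 0.27 without a mouse), Sfrp2 was between -0.0037 and 0.24 and Wnt5a between -0.19 and 0.0223 without a mouse. For the progenitor over the preadipocyte gate, Sfrp5 went to -0.0174 without TMM, -0.16 with cells of 2 gates in both and -0.37 with stricter gates (-0.43 to 0.51 without a mouse). In the Cd44 split, reading Cd44 on raw UMIs gave 0.32 for Fzd5, 0.0850 for Dkk2, -0.23 for Wnt11, 0.14 for Fzd8 and -0.31 for Lrp5, no TMM gave -0.0258 for Lrp6 and -0.0029 for Wnt11, a 10% mitochondrial limit gave 0.0183 for Fzd5, -0.0410 for Wnt11 and -0.0150 for Lrp5, and thinning gave -0.19 for Lrp5. Leaving out a mouse there gave -0.0505 to 0.42 for Sfrp2, -0.20 to 0.26 for Wnt11, -0.94 to 0.65 for Wnt9a and -0.45 to 0.13 for Fzd8.

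Sfrp5 had too few counts to be tested in the regulatory gate under both alternatives without other types' cells, with thinned cells or with gates read on thinned cells, and Wnt1 with thinned cells. The alternative without cells holding epithelial, muscle and further leukocyte genes was chosen after seeing the data.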

Other observations

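Ligand UMIs of the cells in no gate summed to 168, 179.9 and 194 CPM in mice 1, 2 and 3, and their secreted inhibitors to 633, 1026 and 949 CPM, with 500.1 ± 178 CPM of Sfrp2 and 148 ± 46.9 CPM of Sfrp4 (SD, n = 3 mice). Wnt10b averaged 13.5 CPM there and Wnt2 39.6 CPM. Sfrp5 was held by few cells in this fraction as well, with 110, 20 and 116 UMIs in 13, 4 and 10 cells, of which the highest cell held 29, 10 and 37.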
